A study of Caenorhabditis elegans with 2 samples.

Results

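The genes described here are the protein-coding genes of Caenorhabditis elegans for cytosolic translation factors and for aminoacyl-tRNA synthetases, selected by a rule on their names. They are the genes whose symbol begins with eif, eef or iff, or with 1 letter and ars, followed by a hyphen and a digit. In the Ensembl annotation of the WBcel235 assembly, 65 of 19973 nuclear protein-coding genes met this rule, of which 33 are factor genes and 32 synthetase genes. Their promoters were searched for sites of Y79H2A.3, mapped by chromatin immunoprecipitation and sequencing of whole young adults, 63 hours old, of strain RW12273. In that strain a TY1, EGFP and 3xFLAG tag was inserted by CRISPR into Y79H2A.3 on chromosome III, and larvae were starved after bleaching to synchronise them. The antibody was directed against GFP. There was 1 group of 2 biological replicates, both of this 1 strain, and no second condition, so nothing was tested between groups. Whole animals were used, and the cells in which a site was occupied cannot be told apart.

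Translation factors and synthetases supply steps of protein synthesis that every cell needs. Initiation factors bring the initiator tRNA and the small ribosomal subunit to a messenger RNA: eIF2 carries the tRNA, eIF2B reloads eIF2 with GTP, and eIF3 is a large scaffold on the small subunit. Elongation factor eEF1A delivers each charged tRNA, eEF1B recharges eEF1A with GTP, and eEF2 moves the ribosome along the message. Each synthetase joins an amino acid to its tRNA, in the cytosol or in the mitochondrion. The rule also takes eif-4A3, whose product is known as the helicase of the exon junction complex in other animals.

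A gene was counted as having a site when a peak summit fell in its promoter window, which ran from 1000 bp before to 200 bp after each of its annotated transcript starts. Peak heights are the deposited signal values, whose scale is not stated, and they order peaks within 1 list only. Heights of the replicates are set side by side as deposited, and whether they lie on a common scale is not known. The conservative list held 1021 peaks that passed an irreproducible discovery rate (IDR) of 0.01 between the replicates. The ranked list of the same comparison held 77086 sites, most of them below that threshold. A ranked site here means any entry of that list, whether or not it passed. The members' tallest ranked sites had a median −log10 IDR of 0.303, against 0.207 over all coding genes with a ranked summit. Both are far below the threshold of 2, so most heights given below belong to sites that did not reproduce at that limit. The files give no read counts, so library depth is unknown and no counting error can be given per site; control precipitations were not analysed here.

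Of the 65 members, 6 (9.23%) had a conservative summit in the window, against 2.88% of all protein-coding genes. They were 4 of 33 factor genes (12.1%) and 2 of 32 synthetase genes (6.25%). The factor genes were eef-2, eif-3.C, eef-1A.2 and eif-2Bgamma, and the synthetase genes were ears-2 and fars-3. A seventh gene, eif-3.B, was present in the pooled list and in the list of replicate 1 but not in the conservative list. These counts describe the lists. No test of the set was made, since the members were proposed with results of these data known. The members had somewhat more annotated starts than coding genes in general, with a mean of 1.8 against 1.49, and hence slightly longer windows, with a mean of 1569 bp against 1459 bp.

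Sequences are shown for 4 of these 6 summits and for the summits of eif-3.B and eef-1A.1. Those under the eef-2 and eif-3.C summits are not shown. The printed sequences differ widely in composition. They were read from the RefSeq WBcel235 genome on the strand of the named gene, 5′ to 3′, with CpG dinucleotides in capitals. The summit is base 51 of 101 in each, except for ears-2, where the stretch is the whole interval of 91 bp between the transcripts of ears-2 and the divergent uncp-18 and the summit is base 67. The positions are chrIV:390469-390559 on the minus strand for ears-2, chrX:7823214-7823314 on the plus strand for eef-1A.2, chrIII:6972004-6972104 on the minus strand for eef-1A.1, chrII:8464613-8464713 on the plus strand for fars-3, chrII:6968464-6968564 on the minus strand for eif-2Bgamma, and chrII:14795152-14795252 on the plus strand for eif-3.B.
ears-2: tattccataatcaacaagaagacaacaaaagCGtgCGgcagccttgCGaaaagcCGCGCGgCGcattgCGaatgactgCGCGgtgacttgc
eef-1A.2: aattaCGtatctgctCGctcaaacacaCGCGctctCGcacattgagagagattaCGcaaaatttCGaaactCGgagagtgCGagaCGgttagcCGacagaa
eef-1A.1: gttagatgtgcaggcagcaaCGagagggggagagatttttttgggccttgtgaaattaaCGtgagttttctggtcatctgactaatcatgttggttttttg
fars-3: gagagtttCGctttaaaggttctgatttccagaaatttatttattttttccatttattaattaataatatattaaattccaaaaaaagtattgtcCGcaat
eif-2Bgamma: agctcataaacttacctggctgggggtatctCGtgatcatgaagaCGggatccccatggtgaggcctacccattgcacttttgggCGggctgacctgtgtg
eif-3.B: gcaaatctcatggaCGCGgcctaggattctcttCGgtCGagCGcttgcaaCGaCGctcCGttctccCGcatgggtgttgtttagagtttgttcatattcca

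The ears-2 interval held 10 CpG and the eef-1A.2 stretch 11, while the fars-3 stretch held 2 and was 22.8% G and C. The eif-3.B stretch held 9 CpG. The eef-1A.1 stretch, the weaker site of the eEF1A pair, held 2. The eif-2Bgamma stretch overlaps the small nuclear RNA gene sup-39 and held 3.

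Elongation factors had the tallest member site. At eef-2, which encodes the translocation factor, the summit lay 5 bp upstream of a start, on chromosome I at 9163526, in a peak from 9163378 to 9163673. Its height was 67.5 in the list of replicate 1 and 48.6 in that of replicate 2, and it was 122 in the conservative list, rank 168 of 1021. The −log10 IDR was 3.56. The same summit lay 260 bp upstream of clsp-1, a divergent gene for claspin, so the peak falls in the windows of both genes. In the single replicates the summits stood 6 bp and 18 bp upstream of the eef-2 start, and both replicates thus placed the site close to it. Only replicate 1 carried it in its own thresholded list.

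The 2 genes for eEF1A had different sites. Their coding sequences have the same length of 1389 bases and share 1305 of them (94%), and the translated products of 463 residues are identical. Their upstream regions of 1000 bp share no 31-mer. At eef-1A.2, on X, the summit lay 390 bp upstream with heights of 40.5 in replicate 1 and 37.6 in replicate 2, and the conservative peak (7823116 to 7823411) had a height of 81.1 and a −log10 IDR of 2.53. At eef-1A.1, on III, the tallest ranked site lay 342 bp upstream with a height of 47.3 and a −log10 IDR of 0.16. The tallest site in its window lay 960 bp upstream in replicate 1 (height 39.2) and 394 bp upstream in replicate 2 (27.1), so the replicates did not place it at the same position. The eef-1A.1 summit is nearer to a start of rfc-4, at 199 bp, than to its own. The eef-1A.2 summit lay in no other gene's window. The difference between these genes was not tested. On X, 0.549% of coding genes had a conservative summit, and eef-1A.2 is the only member there.

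The remaining elongation genes encode subunits of the eEF1B exchange factor. The eef-1B.1 site lay 4 bp past the start with a height of 48.6 and 26.0 and 29.3 in the replicate columns of the ranked list. Its −log10 IDR of 1.39 is below the threshold of 2. The eef-1B.2 site, 507 bp upstream, had a height of 30.6, and the eef-1G site, 49 bp upstream, a height of 27.0. The 6 elongation genes thus ranged from 27.0 to 122, and 5 of them stood above the median of 29.7 over all coding genes with a ranked summit.

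Among the 11 eIF3 subunit genes, eif-3.C was the only one in the conservative list and eif-3.B had the next tallest site. The eif-3.C summit lay on chromosome I at 9979923, 261 bp upstream of its start, in a peak from 9979775 to 9980070 with no other gene's window over it. Its height was 44.4 in replicate 1, 51.3 in replicate 2 and 107 in the conservative list, with a −log10 IDR of 3.16. Both replicates put the tallest site of the window within 261 bp of the start.

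At eif-3.B the height was 50.2 in replicate 1, where the site passed the threshold, and 21.2 in replicate 2, where it did not. The height in the ranked list was 75.3, just below the 76.6 of eif-2Bgamma. The −log10 IDR was 2.08 in the pooled ranked list, but 0.95 in the comparison of the replicates. Summits of both replicates lay close together, 212 and 218 bp upstream. Near eif-3.G, for an RNA-binding subunit, a conservative peak of height 73.5 lay 1029 bp upstream, just outside the window, and eif-3.G was the nearest annotated start of any gene. Inside its window the tallest ranked site had a height of 48.4, at 143 bp past a start.

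The other eIF3 genes had lower sites. Heights were 49.2 at eif-3.H, 48.9 at eif-3.J, 44.8 at eif-3.I, 40.9 at eif-3.D, 33.5 at eif-3.E, 30.0 at eif-3.K and 20.3 at eif-3.L. The gene eif-3.F had no ranked summit in its window. Of the 10 eIF3 genes with a site, 9 stood at or above the all-gene median and 7 at or above the upper quartile of 39.8. The replicate columns of that list held unequal values at several of them: eif-3.I had 11.8 and 33.9, eif-3.D 12.2 and 36.2, and eif-3.E 7.64 and 24.6.

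None of the 3 eIF2 subunit genes had a conservative summit. The heights were 44.3 at eif-2gamma, the GTP-binding subunit, 34.7 at eif-2alpha, the regulatory subunit phosphorylated under stress, and 33.8 at eif-2beta. At eif-2alpha the replicate columns held 25.5 and 3.89, and at eif-2beta 26.8 and 4.07. Both sites were thus higher in the first column. The eif-2gamma columns held 22.2 and 24.1, and its summit lay 742 bp upstream and only 33 bp from a start of tbca-1.

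Of the 5 eIF2B subunit genes, eif-2Bgamma alone had a conservative summit. It lay on II at 6968514, 866 bp upstream, with heights of 40.2 in replicate 1, 39.4 in replicate 2 and 76.6 in the conservative list (−log10 IDR 2.62). The summit also lay 44 bp past the start of sup-39, within the windows of mir-1831, 21ur-14704 and C15F1.14, so 4 noncoding genes are nearer to it than eif-2Bgamma. Of the 31-mers in the peak, 63.2% occur once in the genome, while at the other 5 conservative member sites 100% do. The eif-2Balpha site had a height of 46.9, with 11.1 and 38.4 in the replicate columns and a −log10 IDR of only 0.15. The eif-2Bepsilon, eif-2Bdelta and eif-2Bbeta sites were low, at 21.4, 21.1 and 13.9.

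Other initiation factor genes were led by eif-2A, with 61.3 at a summit 146 bp past a start, and eif-1, for a factor of start codon selection, with 54.8. The eif-2A columns were 40.3 and 18.9 and its −log10 IDR was 0.64. The eif-1 columns were 32.2 and 28.2 and its −log10 IDR was 1.6, the highest of any tallest site of a member outside the conservative list. The eif-1 summit, however, lay 411 bp upstream and 7 bp from a start of vps-24. The sites of eif-2D (28.3), eif-1.A (19.7), eif-6 (18.5) and eif-4A3 (13.3) stood below the all-gene median. The eIF5A genes iff-1 and iff-2, for a factor that helps ribosomes past stalls, had heights of 31.8 and 36.2.

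**Figure D1:**
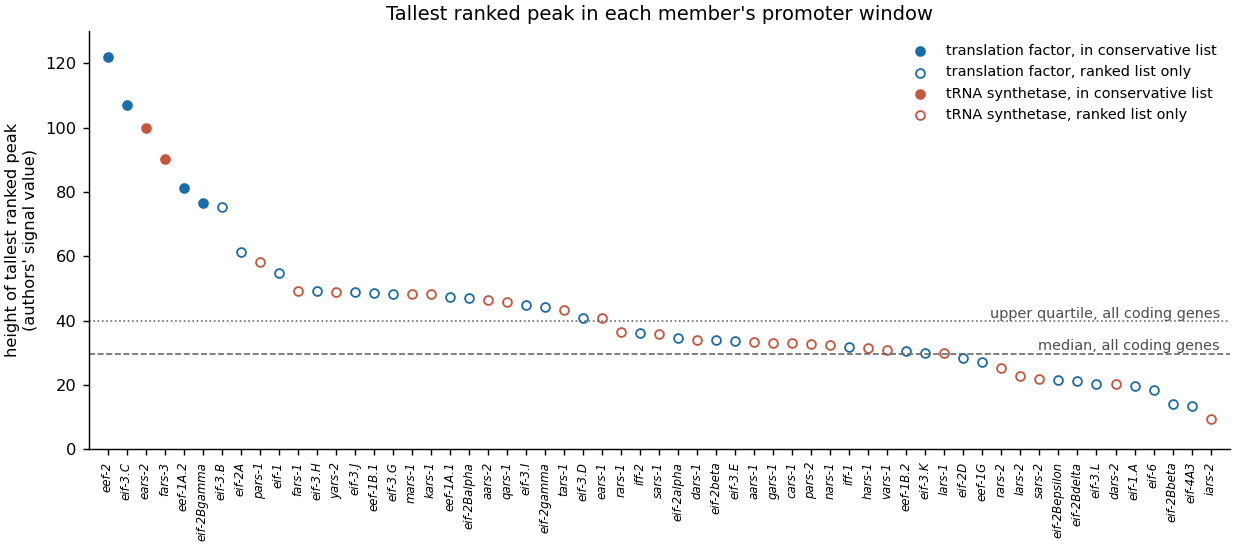
Height of the tallest ranked peak in the promoter window of the 59 members that have one (signal value, y axis), ordered by height. Filled points are members with a conservative summit, blue points translation factors and red points tRNA synthetases; the lines mark the median of 29.7 and the upper quartile of 39.8 over coding genes with a ranked summit. The 6 filled points are the 6 tallest, from 76.6 to 122, with eif-3.B next at 75.3.

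Synthetases had 2 genes in the conservative list. The gene ears-2 encodes the mitochondrial glutamyl-tRNA synthetase by its RefSeq product name. Its summit lay on IV at 390493, 25 bp upstream, in a peak from 390345 to 390640. The height was 52.6 in replicate 1, 43.9 in replicate 2 and 99.9 in the conservative list, with a −log10 IDR of 3.12. The summit also lay 67 bp upstream of uncp-18, annotated as a syntaxin-binding protein, and the interval between these divergent genes shown above lies wholly within the peak.

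The gene fars-3 encodes the beta subunit of a phenylalanyl-tRNA synthetase. Its summit lay on II at 8464663, 185 bp upstream, in a peak from 8464515 to 8464810 with a height of 90.2 and a −log10 IDR of 2.45. The height was 30.1 in replicate 1 and 54.2 in replicate 2, and only replicate 2 carried the site in its thresholded list. The deposited values differ by 1.8 times, more than at the other 5 conservative members. A second entry in the pooled list, 14 bp past the start, had a height of 2.44. Its −log10 IDR in the comparison of the replicates was 1.61. The gene fars-1, also annotated as a phenylalanyl-tRNA synthetase, had a site of 49.3 at 116 bp upstream, with 16.5 and 27.0 in the replicate columns. A conservative peak of 104 lay inside fars-1, 1379 bp past its nearest start, and 13 bp from the small nucleolar RNA gene T08B2.13. The gene fars-2 had no ranked summit in its window.

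Of the other synthetase genes, pars-1 and gars-1 came nearest to the threshold. The pars-1 site, for prolyl-tRNA synthetase, lay 953 bp upstream with a height of 58.3, 25.6 and 29.3 in the replicate columns, and a −log10 IDR of 1.36. Of the 31-mers in that peak, 53% occur once in the genome. The gars-1 site, for glycyl-tRNA synthetase, had a height of 33.1, with 24.7 and 30.0 in the columns and a −log10 IDR of 1.32. Heights above that of gars-1 also stood at yars-2 with 49.0, mars-1 and kars-1 with 48.1, aars-2 with 46.4 and qars-1 with 45.9. Among them too were tars-1 with 43.2 and ears-1, the other glutamyl gene, with 40.7. The yars-2 columns were 24.4 and 25.0, at a summit 18 bp upstream, and its −log10 IDR was 1.04.

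Pairs of synthetase genes for 1 amino acid did not share a direction in their ranked heights, and the differences were not tested. The glutamyl pair had 99.9 at ears-2 and 40.7 at ears-1, and the tyrosyl pair 49.0 at yars-2 with no ranked summit at yars-1. The alanyl pair had 46.4 at aars-2, cytoplasmic by its product name, and 33.4 at aars-1, mitochondrial. The prolyl pair had 58.3 at pars-1 and 32.7 at pars-2, the arginyl pair 36.4 at rars-1 and 25.1 at rars-2, and the seryl pair 35.7 at sars-1 and 21.8 at sars-2. The aspartyl pair had 34.0 at dars-1 and 20.1 at dars-2, and the leucyl pair 29.9 at lars-1 and 22.7 at lars-2. The order differed between the replicate columns for the alanyl pair (15.1 and 33.7 at aars-2, 24.5 and 14.9 at aars-1). It also differed for the leucyl pair (8.18 and 21.7 at lars-1, 10.3 and 9.05 at lars-2). The other pairs here with a site at both genes kept their order in both columns. The sites of ears-1, dars-1, sars-1 and lars-1 lay nearer to a start of another gene, at 98, 11, 50 and 375 bp. By product name, 8 of 10 cytoplasmic synthetases had a ranked summit, with heights of 32.4 to 48.1, and all 4 mitochondrial ones did, with heights of 25.1 to 99.9. The share over all coding genes was 66.0%, and a difference between the compartments was not tested. The product names of the other 18 give no compartment.

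In the isoleucyl pair iars-1 had no ranked summit and iars-2 had the lowest site of all members, 9.35. A conservative peak of 114 lay inside iars-2, 4233 bp past its start, nearest to a start of clec-87 at 1051 bp. In the asparaginyl pair nars-1 had 32.4 and nars-2 no ranked summit. Members with no summit of the ranked list in the window were thus eif-3.F, fars-2, iars-1, nars-2, wars-1 and yars-1. The ranked lists of the single replicates did hold a summit for iars-1, of height 10.5 in replicate 1 and 7.88 in replicate 2. Conversely, eif-1.A, eif-6 and eif-3.L had a site in the comparison list but none in either replicate list. The remaining synthetase genes, cars-1 (32.9), hars-1 (31.3) and vars-1 (30.9), lay just above the all-gene median.

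Below the threshold, the ranked list covered most members. A ranked summit lay in the window of 59 of 65 members (90.8%), against 66.0% of all coding genes, 32 of 33 for factors and 27 of 32 for synthetases. In the pooled ranked list the count was 54, against a background of 57.0%, in replicate 1 alone 51 against 46.8%, and in replicate 2 alone 51 against 49.6%. Both replicate lists had a site at 45 members, 1 list alone at 12 and neither at 8, against 32.0%, 32.4% and 35.6% of coding genes. Any summit in the window counted here, so the sites of the 2 lists need not lie at the same position. The median height over the 59 was 35.7, against 29.7 over the 13179 coding genes with a ranked summit. Of the 59, 45 (76.3%) stood at or above that all-gene median, and 27 (45.8%) at or above the upper quartile, which by construction holds 25.0% of genes. Only members with a ranked summit enter these medians.

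In the thresholded lists of the single replicates the members were few. Replicate 1 held eef-2, ears-2 and eif-3.B, 3 members against a background of 1.41%, and replicate 2 held fars-3 alone, against 1.19%. No member was in both, but the share of all coding genes in both was not counted, so this is no result about the members. The pooled list held 7 members, the 6 conservative ones and eif-3.B, against 2.60% of coding genes. Just inside the conservative threshold of 2 stood fars-3 (−log10 IDR 2.45), eef-1A.2 (2.53) and eif-2Bgamma (2.62), and just outside it eif-1 (1.6), eef-1B.1 (1.39), pars-1 (1.36) and gars-1 (1.32). A lower second site reached 1.55 in the window of eif-3.J and 1.1 in that of eif-3.I. In all, 13 of 65 members had a ranked site of −log10 IDR 1 or more in the window, against 7.31% of coding genes.

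Heights in the replicates were weakly related over the member sites. The ranked list gives 2 columns of replicate heights without naming the replicate. Of the values in the first column, 54.7% recur in the list of replicate 1 and 1.7% in that of replicate 2, and of those in the second 1.6% and 45.6%. Across the 59 member sites Pearson's r of the log10 heights was 0.26 and Spearman's rho was 0.25. Across the 11879 distinct sites of all coding genes they were 0.39 and 0.33. These are descriptions across sites of 1 pair of libraries, and no p is attached to them. The columns differed by less than 2-fold at 37 member sites (62.7%) and at 76.1% of all sites. The second column was the higher at 32 of 59.

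**Figure D2:**
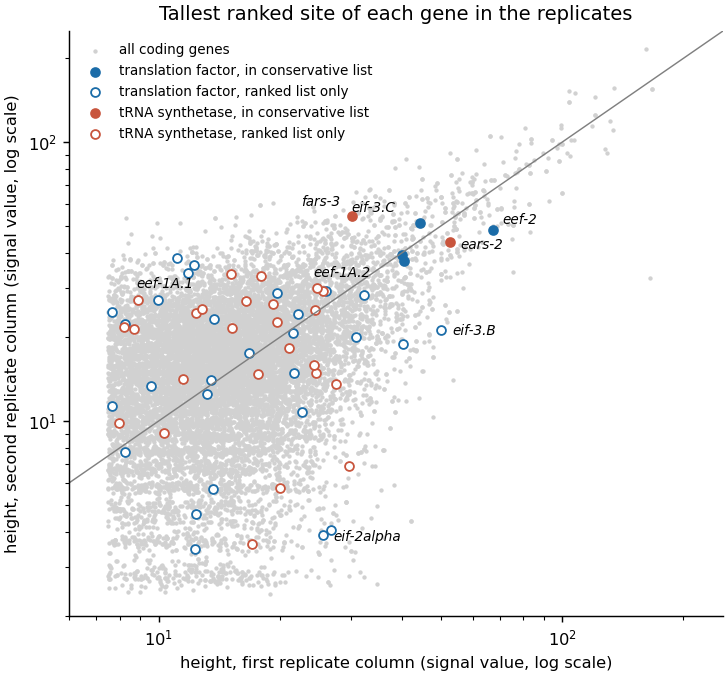
Height of each gene's tallest ranked site in the first (x axis) and second (y axis) replicate column, signal values on log axes; grey points are all coding genes, blue and red points the members, filled where the site is in the conservative list, and the line marks equal heights. The 6 filled points lie near the line, within 1.8 times. The conservative list was itself chosen by agreement between these replicates, so the closeness of its points to the line is not a separate result. Outside that list, sites such as eif-3.B (50.2 and 21.2) and eif-2alpha (25.5 and 3.89) lie below the line and eef-1A.1 (9.95 and 27.1) above it.

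Member sites lay on both sides of the starts. The median distance of the tallest ranked summit from the nearest start of its gene was 261 bp over the 59 members, against 335 bp over all coding genes. Within 250 bp of the start lay 29 of the 59 (49.2%), against 42.6%, and 500 bp or more upstream 14 (23.7%), against 36.6%. At or past the start lay 13 (22%), against 19%. For 43 of the 59 the member's own start was the nearest coding start, a lower share than the 82.2% of all coding genes with a ranked summit. For the other 16 another gene was nearer, such as ctr-9 for dars-1 (11 bp), vps-24 for eif-1 (7 bp) and tbca-1 for eif-2gamma (33 bp). They include eif-1.A, eif-2Balpha, eif-2Bepsilon, eif-2D, eif-3.K, hars-1, iars-2, kars-1 and tars-1, whose heights are given above without the nearer gene.

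**Figure D3:**
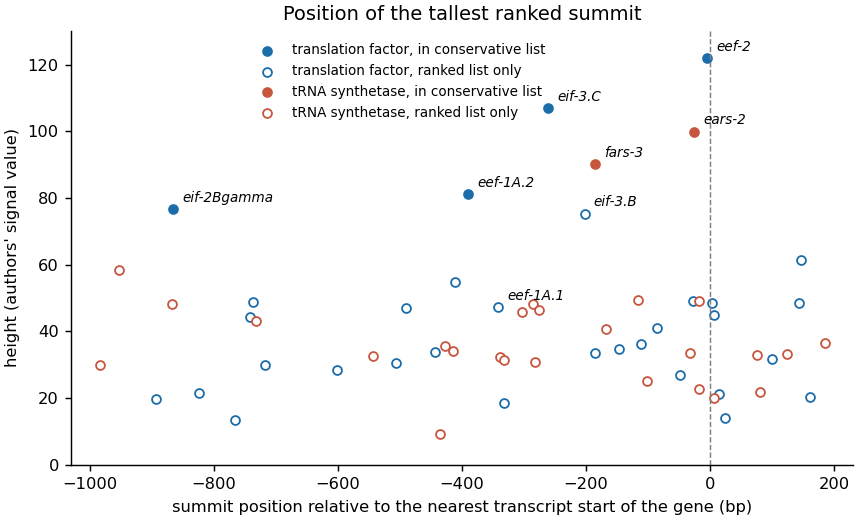
Position of the tallest ranked summit relative to the nearest start of its gene (x axis, bp, negative upstream) against its height (y axis, signal value) for the 59 members; colours and fills as in the plot of member heights. Of the 6 conservative sites, eef-2 (5 bp) and ears-2 (25 bp) lie at the start, fars-3, eif-3.C and eef-1A.2 between 185 and 390 bp upstream, and eif-2Bgamma 866 bp upstream.

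The median base composition of member sites was close to that of ranked sites in general. Within 50 bp of the summit, the median CpG count was 4 over the 59 member sites, 3 over all 77086 ranked sites and 5 over the 1021 conservative peaks. Counts of 10 or more CpG occurred at 5 of the 59 (8.47%), against 2.59% of ranked sites and 14.8% of conservative peaks. At the 6 conservative member sites the counts were 15 at ears-2, 11 at eef-1A.2, 10 at eif-3.C, 4 at eef-2, 3 at eif-2Bgamma and 2 at fars-3. These 6 sites thus do not share a composition. The letters CGCGCC, on either strand, occurred at 3 of 59 member sites (5.08%), namely ears-2, eif-3.C and aars-1, against 1.92% of ranked sites and 10.4% of conservative peaks. At ears-2 they lie on the side of the summit inside the transcript, and not in the interval printed above. GAGAGA occurred at 5 member sites (8.47%), both eEF1A genes among them, against 6.21% and 8.72%. CCGCCC occurred at 2 (3.39%), aars-2 and eif-2Bgamma, against 2.18% and 3.33%. CGCGCC was taken up because it was known from earlier results of these data.

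Genes that act beside the members were taken from a list of 30 names, chosen with earlier results of these data known. Of the 29 names in the annotation, 4 had a conservative summit (13.8%, against the 2.88% of all coding genes). A ranked summit lay in the window of 26 (89.7%, against 66.0%), with a median height of 46.9, against 35.7 over the members. The 4 were larp-1 on III (120), a La-related RNA-binding protein gene, ifet-1 on III (93.6), a translational repressor, rheb-1 on III (75.1), the GTPase that activates TOR, and erfa-3 on V (72.6), a release factor gene. The larp-1 columns were 60.9 and 59.6, those of ifet-1 51.9 and 47.3, of rheb-1 34.9 and 46.1, and of erfa-3 41.9 and 34.0. None of the genes for the cap-binding complex eIF4F was in the list: ife-1 to ife-5 ranged from 14.3 to 49.8, ifg-1 had 43.4 and inf-1, for eIF4A, 49.1. The poly(A)-binding protein genes pab-1 and pab-2 had 57.9 and 51.0. The kinases that act on eIF2alpha had 45.1 at pek-1 and 15.9 at gcn-2.

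Beside other gene sets taken by name, the members lay between the cytosolic and the mitochondrial ribosomal proteins. Of 78 cytosolic ribosomal protein genes 20 had a conservative summit (25.6%), with a median ranked height of 42.0. Of 70 mitochondrial ribosomal protein genes 2 did (2.86%), with a median of 34.8. Of 33 proteasome subunit genes 3 did (9.09%), close to the 9.23% of the members, with a median of 46.6. The differences between these sets were not tested.

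**Figure D4:**
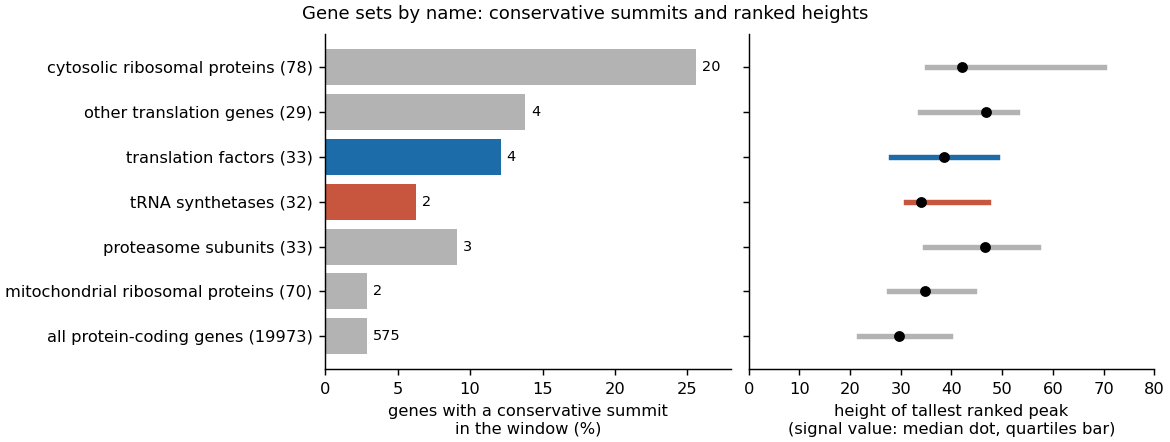
Left, share of genes with a conservative summit in the window (bars, percent, from 0; the number beside each bar is the count of such genes and the number in brackets the genes in the set); right, median (dot) and quartiles (bar) of the tallest ranked height over the genes of the set with a ranked summit (signal value). Translation factors (4 of 33) and synthetases (2 of 32) stand above all coding genes (2.88%) and below cytosolic ribosomal proteins (25.6%), with median heights of 38.6 and 34.0.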

How the data were processed

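The data used are 8 peak lists on ce11, per the labels: thresholded and ranked lists for each replicate, for the pooled reads and for the comparison of the replicates. The authors deposited a signal value per peak, whose scale is not stated, and in the ranked lists a −log10 of the global IDR. The aligner and peak caller were not given in the sources used here. Of the lists' columns, 74 were not used. Of 1065 ranked sites with a −log10 IDR of 2 or more, 44 are not in the conservative list.

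Summits were taken as deposited, counted from 1, and placed against Ensembl release 115 starts on the 6 nuclear chromosomes, whose lengths held every peak. A member's height is that of the tallest ranked summit in its window. Roles come from RefSeq product names and general knowledge. Window assignment was tested on simulated data. Python 3.11.15, pandas 2.3.3 and scipy 1.17.1 were used. Synthetases, factors and comparison sets were taken by name, and members, motifs and lists were chosen with earlier results of these data known. Genes named are all members in a thresholded list, the 10 next tallest, their paralogs, those with no ranked summit and those near the threshold; the rest are given for completeness. The alternatives were other windows, starts, lists and IDR limits. Peaks from 1 pair of libraries do not replicate each other, so p-values were left out.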

Additional observations from a re-analysis of the deposited data

How the results depend on the processing

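Of 9 alternatives tried for the count of 6 members with a conservative summit, 6 gave between 5 and 7. Narrowing the window to 500 bp before and 100 bp after a start lost eif-2Bgamma (5 members, against 2.12% of coding genes), and widening it to 2000 and 500 bp added eif-3.G (7 members, against 4.12%). With a −log10 IDR of at least 3, which 387 conservative peaks reach, 3 members were left (eef-2, eif-3.C and ears-2; 2 factors and 1 synthetase) against 1.3% of coding genes. In single replicates the count was 1 to 3, with 0 to 2 factors and 1 synthetase in each; the replicate 1 list held eef-2, ears-2 and eif-3.B, and the replicate 2 list fars-3. The count of 59 members with a ranked summit ranged from 51 to 62 and stayed within 1.5 times. The share of all coding genes ranged from 46.8% to 81.5% over the same settings. The median height of 35.7 was 34.4 and 44.2 with the narrower and wider windows, 33.7 with the most upstream start alone, 38.6 in the pooled ranked list and 21.6 to 23.3 in single replicates, whose heights are on a scale of their own; the all-gene median was lower in each (27.7, 32.8, 28.7, 31.7, 17.8 and 20.6). No paired analysis was possible because there is 1 group of 2 replicates. The unknown depth limits what absence from a list means.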
